A study of Mus musculus with 6 samples.

Results

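The 10 genes described here, Eif2ak3, Ern1, Atf6, Atf4, Xbp1, Ddit3, Atf3, Chac1, Trib3 and Hspa5, carry the unfolded protein response. In this response, sensors in the membrane of the endoplasmic reticulum detect misfolded protein and switch on transcription factors that raise folding capacity or, when stress lasts, cell death genes. It is a known arm of the answer of tumour cells to severe lack of oxygen. Chromatin accessibility was measured by ATACseq, in which a transposase cuts open DNA, so that more fragments pile up where chromatin is more open. The cells were GL261, a mouse glioblastoma line, stably carrying the plasmid pEGFP-N1, and were held in normoxia (21% O2), in moderate hypoxia (1% O2, 16 h) or in severe hypoxia (<0.1% O2, 16 h) before fixation with formaldehyde. There were 2 libraries per condition and 6 in all, so the comparisons ask whether the chromatin of these genes opened or closed at each level of hypoxia.

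Every peak within the body of a gene or 20 kb of it was taken, with positions on mm10 and gene models of GENCODE M21. This gave 56 regions, of which 49 were consensus peaks, meaning that both libraries of at least 1 condition shared over 200 bp, out of 41308 consensus peaks in all. The remaining 7 were listed without such a match. Of the 56 regions, 14 were promoter peaks of the 10 genes, within 2000 bp of a transcription start site (TSS), 12 were promoter peaks of a neighbouring gene, and 30 lay elsewhere and are called distal. All 6 libraries listed 35 of the 56. As a check of the cell type, 7 of 8 glial and glioma markers had a promoter peak in all 6 libraries, the exception being Fabp7, and 5 of 6 markers of other cell types had none in any library, the exception being Pecam1, which had one in 5 libraries. The lists held from 33006 to 43554 peaks, and the mean fragment coverage of the genome recovered from them was 2.16 and 2.36 at 21% O2 against 2.93 to 3.35 in the hypoxic libraries, higher in each of the 4 than in normoxia.

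Several of these genes are known to carry stress elements near the start, and the bases before it are shown because the promoter peaks below cover them, for Xbp1 only in part. The ER stress element, bound by ATF6, is CCAAT and CCACG separated by 9 bases. The ATF4 site searched was TGATGNAA, the XBP1 site TGACGTGG and the cAMP response element TGACGTCA, all on both strands. AP-1, the site of FOS, JUN and ATF family dimers, was searched as TGACTCA after the sequences had been read. Of the 10 genes, 9 had an entry among 32851 RefSeq promoters (GRCm38.p6), and 6 of these had an ER stress element or an ATF4 site in their strongest promoter peak, whose length over the 10 genes was 978 to 2604 bp, beside 9.39% of the 6421 whole promoter peaks in that length range. No XBP1 site or cAMP response element was found in those peaks. The 250 bases before the RefSeq start follow, 5′ to 3′ on the strand of the gene, with capitals marking the ER stress element (its outer blocks), ATF4 and AP-1 matches. They lie at chr2:34771840-34772089 (plus strand), chr10:127290543-127290792 (plus strand), chr1:191183334-191183583 (minus strand), chr2:119350992-119351241 (plus strand), chr11:5520391-5520640 (plus strand) and chr2:152344061-152344310 (minus strand).
Hspa5: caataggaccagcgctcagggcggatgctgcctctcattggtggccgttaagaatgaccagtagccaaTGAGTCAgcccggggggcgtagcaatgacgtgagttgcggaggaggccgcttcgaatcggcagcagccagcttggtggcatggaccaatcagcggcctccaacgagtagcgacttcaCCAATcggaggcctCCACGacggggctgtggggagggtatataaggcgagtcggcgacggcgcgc
Ddit3: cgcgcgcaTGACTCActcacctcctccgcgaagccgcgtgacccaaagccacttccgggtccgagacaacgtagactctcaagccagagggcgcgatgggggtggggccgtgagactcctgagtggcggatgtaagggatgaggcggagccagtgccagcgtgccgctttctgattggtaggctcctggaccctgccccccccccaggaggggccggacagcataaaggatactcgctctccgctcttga
Atf3: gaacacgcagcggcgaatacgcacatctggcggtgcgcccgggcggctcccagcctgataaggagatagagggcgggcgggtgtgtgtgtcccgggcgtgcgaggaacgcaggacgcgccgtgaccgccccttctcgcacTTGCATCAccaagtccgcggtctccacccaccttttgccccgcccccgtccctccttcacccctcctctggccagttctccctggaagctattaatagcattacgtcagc
Chac1: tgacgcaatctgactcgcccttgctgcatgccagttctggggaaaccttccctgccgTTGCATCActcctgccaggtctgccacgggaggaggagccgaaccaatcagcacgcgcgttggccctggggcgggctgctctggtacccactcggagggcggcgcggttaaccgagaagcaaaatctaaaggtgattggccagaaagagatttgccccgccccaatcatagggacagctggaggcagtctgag
Xbp1: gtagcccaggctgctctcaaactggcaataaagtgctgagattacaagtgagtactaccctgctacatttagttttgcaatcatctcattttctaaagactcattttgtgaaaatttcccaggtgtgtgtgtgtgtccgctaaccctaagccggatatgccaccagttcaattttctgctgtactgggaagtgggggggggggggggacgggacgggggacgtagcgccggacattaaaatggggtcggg
Trib3: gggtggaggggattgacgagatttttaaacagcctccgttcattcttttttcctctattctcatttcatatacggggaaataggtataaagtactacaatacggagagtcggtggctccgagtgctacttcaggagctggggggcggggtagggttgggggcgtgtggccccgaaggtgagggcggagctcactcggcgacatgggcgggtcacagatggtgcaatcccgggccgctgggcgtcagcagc

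Counted back from the RefSeq start, the ER stress element of Hspa5 lay at bases -65 to -47 and the ATF4 matches of Atf3 and Chac1, both reading TTGCATCA, at -110 to -103 and -193 to -186. Measured from the GENCODE TSS, which sets the peak distances below, the Hspa5 element lay from 55 to 73 bp after the start. The single AP-1 match of Ddit3 was at -242 to -236 and that of Hspa5 at -182 to -176. Over all 32851 RefSeq promoters the same window held an ER stress element in 0.113%, an ATF4 site in 3.45% and AP-1 in 4.46%. The remaining ER stress element and ATF4 matches in the strongest promoter peaks fell outside the window. For Ddit3 the ATF4 match TTGCATCA lay from 282 to 275 bp before the GENCODE TSS, for Trib3 the match TTACATCA lay from 14 to 7 bp before it, and Atf3 had a further match, TGATGCAA, from 67 to 74 bp after it. The ER stress element of Xbp1, CCAATcgcggacggCCACG, lay from 247 to 265 bp after its outermost GENCODE TSS, in an exon of Xbp1. The letters of the hypoxia response element, ACGTG or GCGTG, were present in the window of 7 of 9 of the genes and in 38.6% of all promoters. The XBP1 site holds these letters too, and a match to any of these strings says nothing of binding.

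Peak height was taken as the number of fragments at the summit (the summit pileup), recovered from the deposited fold and p-value, and divided by a scale factor for each library, which is called the scaled pileup. Changes were tested by limma over the 28432 consensus peaks that all 6 libraries listed, and a peak was called lower or higher at an adjusted p under 0.05 with a log2 change of at least 0.6. The pileup counts over a population, so fewer cells with an open site and a less open site in each cell cannot be told apart. Nothing in the labels says that the 2 libraries of a condition came from separate cultures, so the spread between libraries may be technical. For each peak limma drew the variance largely from the trend over all peaks (37.5 degrees of freedom in total, with 6 libraries in 3 conditions). The SE and p-values therefore reflect this shared variance more than the spread of a peak's own libraries.

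All 10 genes had a promoter peak in all 6 libraries, and few of these peaks were called. At 1% O2 only Trib3, whose pseudokinase product restrains ATF4 and CHOP, was called among the strongest promoter peaks of the 10 genes, lower by 0.69 on the log2 scale. At <0.1% O2, 0 of these 10 peaks were called by limma, whereas 5 had an unadjusted p under 0.05, all with a negative change (Atf4, Trib3, Atf6, Eif2ak3 and Atf3), beside 42.2% with a negative and 16.2% with a positive change of all promoter peaks at that threshold. By fold over local background Atf4 and Atf6 had a positive change at <0.1% O2, and with the trend of pileup on GC content subtracted Atf3 had one of 0.02. Counting every promoter peak, 12 of 14 were in all 6 libraries and could be tested. At 1% O2, 2 of 12 were called lower (Trib3 and a second Atf6 peak) and 0 higher, beside 6.35% lower and 4.43% higher of all 12959 promoter peaks. At an unadjusted limma p under 0.05, 5 of the 12 had a negative and 2 a positive change at 1% O2, beside 25% and 18.4%. At <0.1% O2, 1 of 12 was called lower (the second Atf6 peak) and 1 higher (the upstream Atf3 peak), beside 19.4% and 4.57% of all promoter peaks. The median log2 change of the 12 was -0.10 at 1% O2 and -0.17 at <0.1% O2, near those of all promoter peaks, -0.04 and -0.19. Scaling by genome coverage in place of the median of ratios shifted the median of all peaks from -0.01 to 0.13 at 1% O2 and from 0.00 to -0.16 at <0.1% O2, and the calls were then 0 lower and 1 higher at 1% O2 and 3 lower and 0 higher at <0.1% O2, beside 2.96% and 8.32%, and 30.2% and 2.53%, of all promoter peaks. Without the first 21% O2 library 2 were called lower at <0.1% O2, and without the first <0.1% O2 library 0 were called higher.

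**Figure D1:**
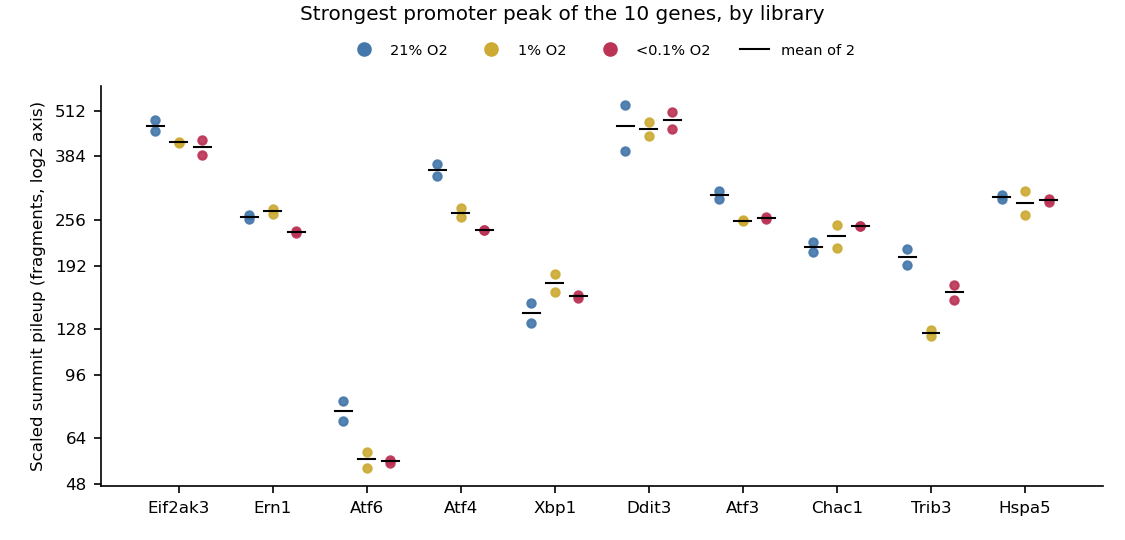
Scaled summit pileup (fragments, log2 axis) of the strongest promoter peak of each of the 10 genes, ordered from sensors to chaperone, in the 6 libraries. Points are libraries coloured by O2 level and black bars the mean of 2 libraries. At 1% O2 the Trib3 libraries lie at 123 and 127, below the 21% O2 libraries at 213 and 192.

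The 3 sensors head the branches of the response. Eif2ak3 encodes PERK, the kinase that phosphorylates eIF2α and slows translation. Its promoter peak (chr6:70843397-70844928, summit 126 bp before the TSS) had summit pileups of 346 and 422 in normoxia, 522 and 474 at 1% O2 and 444 and 413 in severe hypoxia. After scaling the means were 467.2 ± 23.7, 420.2 ± 1.5 and 406.7 ± 29.0 (SD, n = 2), with both hypoxic groups below normoxia. The log2 changes were -0.15 ± 0.09 (SE, limma adjusted p = 0.193) and -0.20 ± 0.09 (adjusted p = 0.0655), neither of which was called. Ern1 encodes IRE1α, the nuclease that splices Xbp1 mRNA. Its promoter peak (chr11:106487358-106488476) had pileups of 185 and 248, then 340 and 302, then 271 and 231 over 21%, 1% and <0.1% O2. Scaled means were 261.7, 270.7 and 237.3, and the log2 changes of 0.05 ± 0.10 (SE, limma adjusted p = 0.734) and -0.14 ± 0.10 (adjusted p = 0.239) were not called. With the GC trend subtracted the change at <0.1% O2 was 0.18.

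Atf6 encodes a membrane-bound factor that is cut in the Golgi to release an activator of chaperone genes. It had the lowest promoter of the 10, with a pair of peaks. At the TSS (chr1:170867089-170868066) the pileups were 51 and 76 in normoxia, 73 and 60 at 1% O2 and 63 and 54 in severe hypoxia. Scaled, both hypoxic groups lay below both normoxic libraries, with log2 changes of -0.44 ± 0.17 (SE, limma adjusted p = 0.0425) and -0.46 ± 0.17 (adjusted p = 0.0281), short of the size needed for a call. With genome coverage scaling the change at <0.1% O2 was -0.63 and was called lower, but the fold over local background went from 6.92 and 8.32 in normoxia to 9.60 and 9.08 at 1% O2 and 8.30 and 7.78 at <0.1% O2, changes of 0.10 and 0.01. The second peak, 915 bp before the TSS (chr1:170868585-170868889), sits in an exon of Gm9929 on the other side. Its pileups were 46 and 67, then 52 and 45, then 37 and 38, and the scaled means were 67.9, 40.9 and 35.7. This peak was called lower at both levels, by -0.73 ± 0.20 (SE, limma adjusted p = 0.00378) at 1% O2 and -0.93 ± 0.20 (adjusted p = 0.000211) at <0.1% O2. The change measured as fold over the local background was -0.19 and -0.45 and was not called, and with genome coverage scaling the change at 1% O2 was -0.59, just under the size for a call.

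Atf4, the factor translated when eIF2α is phosphorylated, had its promoter peak at chr15:80254289-80256086, 55 bp before the TSS. The pileups were 242 and 343 in normoxia, 323 and 313 at 1% O2 and 277 and 232 in severe hypoxia. Scaled, these were 338.5 and 366.1, then 260.6 and 276.8, then 240.9 and 240.0, so that the 3 groups did not overlap. The hypoxia levels differed by -0.16 ± 0.10 (SE, limma adjusted p = 0.239), which did not pass the test. The log2 changes were -0.39 ± 0.10 (SE, limma adjusted p = 0.00162) and -0.55 ± 0.10 (adjusted p = 1.53e-05), both under the 0.6 needed for a call. With genome coverage scaling the change at <0.1% O2 was -0.72, and without the first 21% O2 library -0.60, and both of these were called lower. The fold over local background went the other way, from 7.51 and 7.93 at 21% O2 to 10.97 and 11.31 at 1% O2 and 10.58 and 9.96 at <0.1% O2. Ranked within each library among the 28432 peaks, the fold stood at the 33.0 and 28.2 percentile in normoxia and at 46.1 to 51.8 in hypoxia. The local background itself was 31.4 and 42.4 fragments in normoxia, 28.5 and 26.8 at 1% O2 and 25.3 and 22.4 in severe hypoxia, before scaling. The direction at Atf4 therefore depended on whether height or fold was compared.

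Xbp1 encodes the factor made active by IRE1α splicing, which drives genes of folding and degradation. Its promoter peak (chr11:5520548-5522252) had its summit 252 bp after the outermost TSS, within the stretch that holds the ER stress element given above. Pileups were 108 and 125, then 225 and 184, then 180 and 154. The scaled means of 142.2, 172.1 and 157.9 gave log2 changes of 0.28 ± 0.12 (SE, limma adjusted p = 0.0606) and 0.15 ± 0.12 (adjusted p = 0.285), which were not called, and by fold they were 0.00 and -0.01. Ddit3 encodes CHOP, a factor linked to cell death under lasting stress. The consensus peak over its TSS (chr10:127288606-127291209) is 2604 bp long and holds the start sites of Mbd6, Gm4189 and Gm20492 as well. In 3 libraries it was listed as 2 peaks, but the highest summit lay from 181 to 74 bp before the Ddit3 TSS in every library. Pileups there were 284 and 500 in normoxia, 593 and 493 at 1% O2 and 527 and 492 in severe hypoxia. The groups overlapped, and the log2 changes of -0.01 ± 0.10 (SE, limma adjusted p = 0.945) and 0.07 ± 0.10 (adjusted p = 0.607) were not called.

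Atf3 encodes an early stress-induced repressor and activator of the ATF family. It has 2 annotated start regions, and its stronger peak (chr1:191182427-191183909) covers the inner one. Pileups of 209 and 288, then 315 and 289, then 301 and 249 gave scaled means of 299.9, 254.9 and 259.7, with normoxia above both hypoxic groups. The log2 changes of -0.23 ± 0.10 (SE, limma adjusted p = 0.0549) and -0.21 ± 0.10 (adjusted p = 0.0752) were not called, and that at <0.1% O2 was 0.02 with the GC trend subtracted. The weak peak of the outer start (chr1:191216198-191216707), 1723 bp into the gene, had pileups of 13 and 18, then 30 and 36, then 38 and 30. All 4 hypoxic libraries were higher than both normoxic ones after scaling, and the peak was called higher at <0.1% O2, by 0.78 ± 0.25 (SE, limma adjusted p = 0.0105), and not at 1% O2, with 0.57 ± 0.25 (adjusted p = 0.0722). At <0.1% O2 it lost the call without the first library of that level (0.73), when scaled by genome coverage (0.61) and when the fold was compared (0.44). These pileups are near the lowest that the lists hold, 11 in normoxia and 13 in hypoxia.

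Chac1, a glutathione-degrading enzyme and target of ATF4, had its promoter peak at chr2:119350506-119351573. Pileups were 150 and 209 in normoxia, 266 and 280 at 1% O2 and 284 and 238 in severe hypoxia, or 216.4, 231.1 and 246.6 after scaling. The log2 changes of 0.09 ± 0.10 (SE, limma adjusted p = 0.517) and 0.19 ± 0.10 (adjusted p = 0.131) were not called, and by fold that at <0.1% O2 was -0.18. Trib3, another target of ATF4, shares its promoter peak (chr2:152343366-152344738) with Gm14164. Here the pileups were 152 and 180, then 152 and 144, then 177 and 164, a range of 144 to 180. The scaled values were 212.6 and 192.1 in normoxia, 122.7 and 127.3 at 1% O2 and 154.0 and 169.7 in severe hypoxia, so the 3 groups did not overlap and the lowest was 1% O2. The peak was called lower at 1% O2, by -0.69 ± 0.11 (SE, limma adjusted p = 1.09e-05), whereas -0.32 ± 0.11 (adjusted p = 0.0198) at <0.1% O2 was short of a call. The difference between the hypoxia levels was 0.37 ± 0.11 (limma adjusted p = 0.0168), and at an adjusted p under 0.05 in this contrast 4.31% of all promoter peaks were higher and 21.2% lower. With genome coverage scaling the change at 1% O2 was -0.55 and with the fold over local background -0.35, and in neither was it called.

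Hspa5 encodes BiP, the main chaperone of the endoplasmic reticulum, which holds the sensors inactive and is the classical target of ATF6. Its promoter peak (chr2:34771515-34772512) covers the ER stress element shown above. The pileups were 215 and 274 in normoxia, 327 and 349 at 1% O2 and 331 and 283 in severe hypoxia, and the scaled means of 296.6 ± 5.9, 286.2 ± 31.6 and 290.3 ± 3.4 (SD, n = 2) overlapped. The log2 changes of -0.06 ± 0.10 (SE, limma adjusted p = 0.695) and -0.03 ± 0.10 (adjusted p = 0.82) were not called, and that at <0.1% O2 was 0.23 with the GC trend subtracted. In normoxia the order of the scaled promoter means was Eif2ak3 467.2, Ddit3 465.5, Atf4 352.3, Atf3 299.9, Hspa5 296.6, Ern1 261.7, Chac1 216.4, Trib3 202.4, Xbp1 142.2 and Atf6 76.2. Neighbours whose libraries overlapped in this order were Eif2ak3 and Ddit3, Atf3 and Hspa5, and Chac1 and Trib3.

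The fold over local background, which sets a peak against the fragments around it, ordered the genes otherwise. Eif2ak3, Hspa5 and Chac1 had mean fold ranks of 85.9, 82.8 and 80.2 percentiles in normoxia, against 31.8 for Ddit3, 30.6 for Atf4 and 29.1 for Atf6. At 1% O2 the groups did not overlap and the mean rank differed by at least 10 percentile points for Trib3 (-26.6), Atf3 (-15.5), Eif2ak3 (-12.1), Atf4 (18.3) and Ern1 (10.2). At <0.1% O2 the changes were 21.1 for Atf4 and -13.4 for Chac1, whose libraries also did not overlap those at 21% O2, and -14.8 for Trib3, whose libraries did. Of all promoter peaks, 28.4% met this criterion in either direction at 1% O2 and 38.5% at <0.1% O2. No test was made of these ranks.

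**Figure D2:**
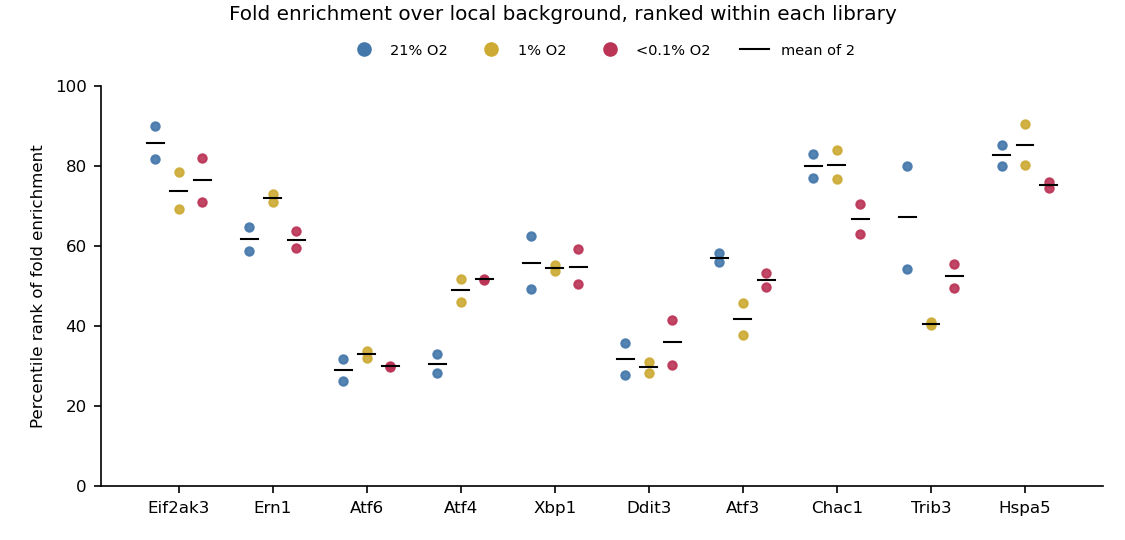
Percentile rank (0 to 100) of the fold enrichment of the same 10 promoter peaks among the 28432 peaks present in all 6 libraries, within each library. Points are libraries and bars the mean of 2. The mean of Atf4 goes from 30.6 at 21% O2 to 48.9 at 1% O2 and 51.7 at <0.1% O2, in the opposite direction to its pileup.

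The largest change near Hspa5 lay away from its promoter. A peak between genes 8916 bp before the TSS (chr2:34762891-34763319) had pileups of 15 and 26 in normoxia, 51 and 51 at 1% O2 and 68 and 74 in severe hypoxia. After scaling these were 21.0 and 27.8, then 41.2 and 45.1, then 59.1 and 76.6, so every step of O2 was separate. The peak was called higher at both levels, by 0.84 ± 0.22 (SE, limma adjusted p = 0.00229) and 1.48 ± 0.22 (adjusted p = 7.01e-07), and <0.1% O2 exceeded 1% O2 by 0.64 ± 0.22 (adjusted p = 0.0264), a contrast in which 19.2% of all peaks outside promoters were higher at an adjusted p under 0.05 and 3.35% lower. Its local background was 2.2 to 4.6 fragments, and the fold over it was 5.06 and 8.04 in normoxia and 13.02 to 14.70 in hypoxia. When only peaks with a -log10 q of at least 10 were kept, it was no longer in all 6 libraries and could not be tested. A second distal peak called higher lay in an intron of Atf6. Its pileups were 34 and 36, then 79 and 65, then 89 and 87, with scaled means of 43.0, 60.6 and 83.7. The log2 changes were 0.50 ± 0.18 (SE, limma adjusted p = 0.0268), not called, and 0.97 ± 0.18 (adjusted p = 3.59e-05), called. At 1% O2 the change without the first 21% O2 library was 0.65, which was called, and at <0.1% O2 the fold changed by 0.34, which was not.

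The central 300 bases of the distal Hspa5 peak are shown on the plus strand of GRCm38.p6, at chr2:34762955-34763254, with the AP-1 match in capitals, since this peak had the largest change of the windows.
Hspa5 distal: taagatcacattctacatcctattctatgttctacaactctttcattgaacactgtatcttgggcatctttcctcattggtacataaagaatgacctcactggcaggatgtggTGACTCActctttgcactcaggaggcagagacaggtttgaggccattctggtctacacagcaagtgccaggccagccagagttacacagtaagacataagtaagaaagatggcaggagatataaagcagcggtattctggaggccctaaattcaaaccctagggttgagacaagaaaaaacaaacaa

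They held 1 AP-1 match, at bases 114 to 120, and no ER stress element, ATF4 site, XBP1 site, cAMP response element or letters of a hypoxia response element. The whole peak of 429 bp held the hypoxia response letters 1 time, outside the bases shown. Among the central 300 bases of all 15473 tested peaks outside promoters, 23.9% held AP-1, 5.13% an ATF4 site and 33.5% the hypoxia response letters. Of the 14 distal peaks tested, 1 was called higher at 1% O2 and 2 at <0.1% O2, and 0 were called lower at either level, beside 12.2% and 19.7% higher and 9.05% and 5.32% lower among all peaks outside promoters. At an unadjusted limma p under 0.05, 1 distal peak had a negative change at 1% O2 and 0 at <0.1% O2, and 5 had a positive change at each level. Of all peaks outside promoters 21.3% and 14.3% had a negative change at that threshold, and 25% and 36% a positive one. The median change of the 14 was 0.12 and 0.09, beside 0.03 and 0.17, and the range was -0.38 to 0.84 and -0.24 to 1.48. The peak 19855 bp before Eif2ak3 had the smallest adjusted p of the uncalled distal peaks at <0.1% O2, with pileups of 83 and 125, then 207 and 180, then 201 and 179. It changed by 0.39 ± 0.12 (SE, limma adjusted p = 0.00825) and 0.53 ± 0.12 (adjusted p = 0.000293), under the size for a call, and was singled out after its values were seen.

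Of 9 promoter peaks of neighbouring genes that were tested, 2 were called lower at <0.1% O2, beside 19.4% of all promoter peaks. At 1% O2, 0 of the 9 were called by limma, and 6 had an unadjusted p under 0.05, beside 43.4% of all promoter peaks. The medians were -0.33 and -0.43, beside -0.04 and -0.19 for all promoter peaks, and the changes ranged from -0.44 to 0.33 and from -0.99 to 0.54. The peak of Gapvd1, 17566 bp before the Hspa5 TSS (chr2:34753909-34754606), had pileups of 57 and 65, then 66 and 72, then 52 and 30. Its change was -0.35 ± 0.20 (SE, limma adjusted p = 0.159) at 1% O2 and -0.99 ± 0.20 (adjusted p = 8.1e-05) at <0.1% O2, a difference of -0.64 ± 0.20 (adjusted p = 0.0161) between the levels. The peak of D730003I15Rik near Atf3 (chr1:191224119-191225042) had pileups of 96 and 123, then 121 and 117, then 87 and 92, and changed by -0.40 ± 0.14 (SE, limma adjusted p = 0.0221) and -0.65 ± 0.14 (adjusted p = 0.00024). With the trend of pileup on GC content subtracted, both changes at <0.1% O2 were -0.44 and neither was called, and the D730003I15Rik peak was -0.49 and not called without the first <0.1% O2 library. By fold over local background the Gapvd1 peak changed by -1.06 and the D730003I15Rik peak by -0.36 at <0.1% O2, and the latter was not called. Over all window peaks other than the promoters of the 10 genes, genome coverage scaling gave 3 higher and 0 lower at 1% O2 and 2 higher and 4 lower at <0.1% O2. Over all 28432 peaks this scaling moved the higher calls from 2467 to 3836 and the lower from 2223 to 1120 at 1% O2. At <0.1% O2 it moved the higher calls from 3645 to 2236 and the lower from 3332 to 5467.

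**Figure D3:**
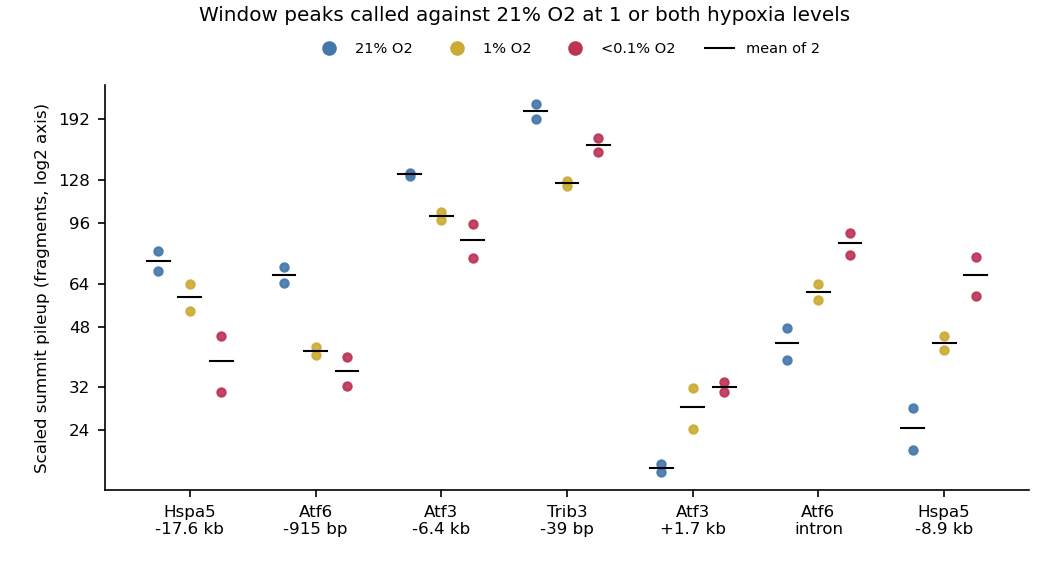
Scaled summit pileup (fragments, log2 axis) of the 7 window peaks called at 1% or <0.1% O2, named by the gene of the window and the distance of the summit from its nearest TSS (or as intronic), ordered by the change at <0.1% O2. Points are libraries and bars the mean of 2. The distal Hspa5 peak climbs from 24.4 to 43.1 and 67.9, while the Gapvd1 peak in the same window goes from 74.6 to 38.1.

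Peaks that were listed in some libraries only were compared by presence. A region that is not listed may still hold fragments under the threshold of the peak caller. At 1% O2, 6 consensus peaks of the windows were listed in both libraries and in neither at 21% O2, 1 at the promoter of a neighbouring gene and 5 distal. At <0.1% O2 there were 7, of which 1 was a promoter peak of the 10 genes, 1 a neighbouring promoter and 5 distal. None of the 49 was listed in both normoxic libraries and in neither at a hypoxia level. Over all consensus peaks 4.22% of promoter peaks and 14.2% of the others were gained in this sense at 1% O2, and 3.53% and 13.8% at <0.1% O2, while 1.01% and 1.52% of all were lost. The windows of the 10 genes held 37 and 41 regions in normoxia, 47 and 45 at 1% O2 and 50 and 46 in severe hypoxia. With the same number of top peaks taken from every library, the gains were 3 at 1% O2 and 5 at <0.1% O2, and the losses were 1 and 2, of 45 consensus peaks in the windows. Over all consensus peaks of these lists 5.63% and 6.58% were gained and 4.77% and 5.67% lost.

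The gained promoter peak lay 1639 bp before the Hspa5 TSS (chr2:34770182-34770543). It was listed only at <0.1% O2, with pileups of 136 and 96 over a local background of 24.1 and 21.3, and folds of 5.46 and 4.35. It held 2 ATF4 matches and 1 AP-1 match in 362 bp, and of the central 362 bases of all promoter peaks 2.46% held an ATF4 match and 0.0694% at least 2. Of the central 300 bases of peaks outside promoters 5.13% held an ATF4 match, and no share with at least 2 was taken for those. Gained at both hypoxia levels were the second Gapvd1 peak, 16676 bp before the Hspa5 TSS, with pileups of 29, 26, 39 and 34 over the 4 hypoxic libraries, a peak 11607 bp past the nearest Xbp1 TSS in an intron of Ccdc117, with 78, 77, 48 and 48, and an intronic Eif2ak3 peak 27739 bp after the TSS, with 31, 35, 44 and 33. The Xbp1 peak was thus higher at 1% O2 than at <0.1% O2 in listed height, without a test. Another intronic Eif2ak3 peak, at 36570 bp, was listed in both libraries at 1% O2, with 35 and 47, and in none of the other 4.

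Around Atf3 the peak 4190 bp before the outer TSS had pileups of 85 and 91 at 1% O2 and 78 in 1 library at <0.1% O2, and that at 27188 bp after the inner TSS had 29 and 23 at 1% O2 and 26 in 1 library at <0.1% O2. The intronic peak 6715 bp before the inner TSS had 39 in 1 library at 1% O2 and 61 and 38 at <0.1% O2. At <0.1% O2 Atf6 gained intronic peaks 37782 bp and 14052 bp after the TSS, with 32 and 32 and with 46 and 32, the second being listed with 23 in 1 library at 1% O2 as well. Another 4 consensus peaks were missing from 1 or 2 libraries. The peak 10715 bp before Xbp1 was missing only from the first 21% O2 library and had 55 to 76 in the others, the Eif2ak3 peak at 33581 bp had 24 to 54 in 4 libraries, the Ern1 peak at 100636 bp had 20 to 33 in 4, and the Atf3 peak at -10937 bp had 20 to 25 in 4. The 7 regions outside the consensus were listed in 1 library each except for an intronic Atf6 region, listed in 3, with pileups from 18 to 65 in all. The highest of them, 65, was 1642 bp before the Ern1 TSS in the second 21% O2 library.

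**Figure D4:**
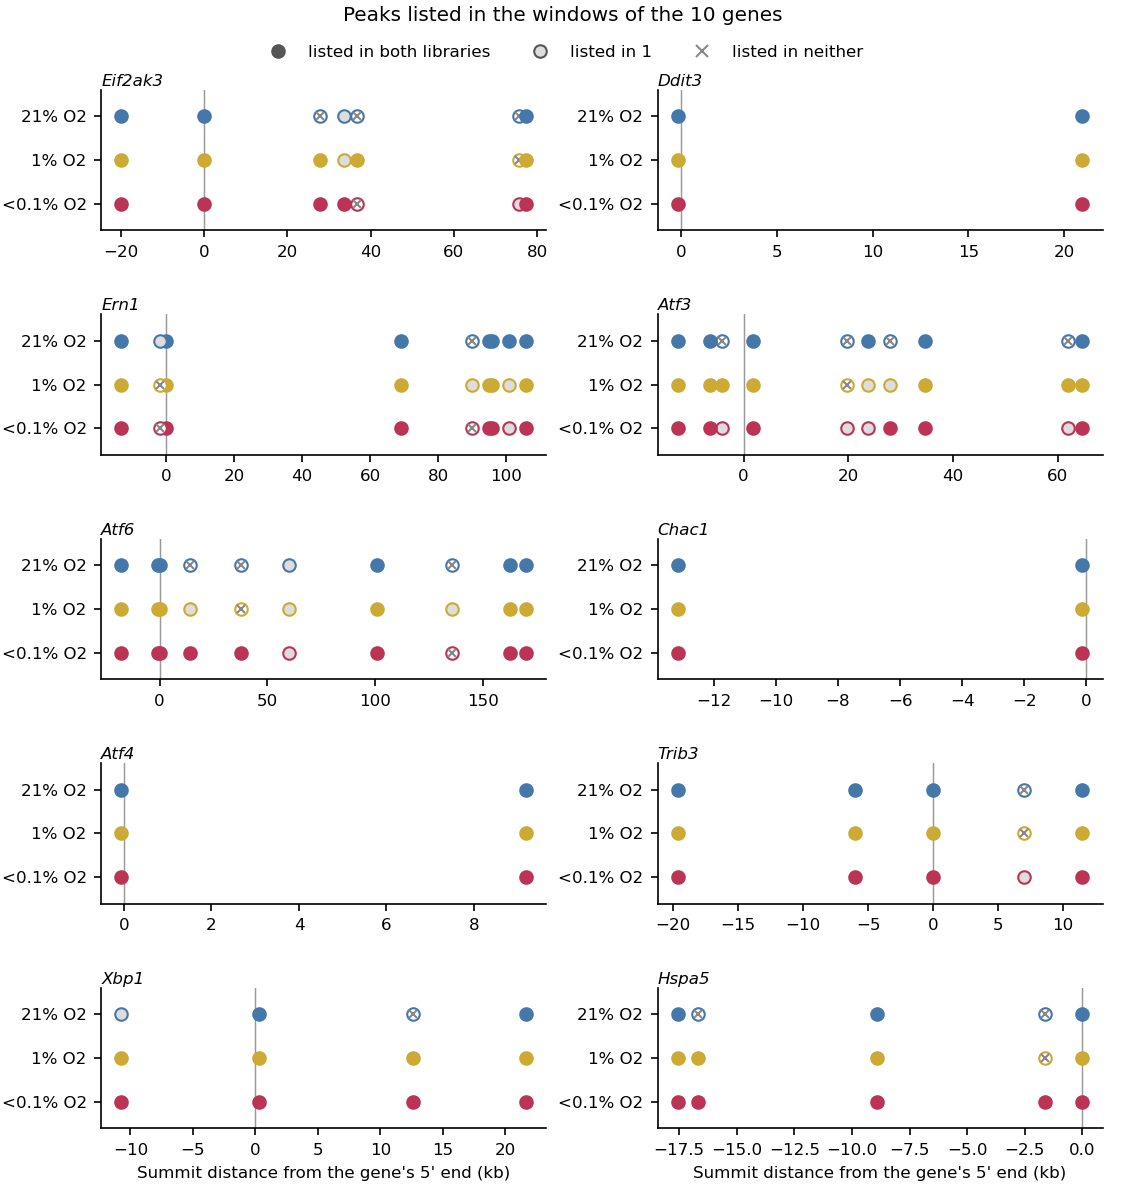
Position of each of the 56 regions as the distance of its summit from the 5′ end of the gene (kb, positive into the gene), by O2 level. Filled points mark regions listed in both libraries of the level, grey points in 1 and crosses in neither. No region is filled at 21% O2 and crossed at a hypoxia level, while crosses at 21% O2 above filled points mark the gained peaks of Hspa5, Xbp1, Atf6, Eif2ak3 and Atf3.

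To set the 10 genes among the wider response, 95 genes in 6 lists were followed at their strongest promoter peak, and 89 had one, of which 87 were in all 6 libraries. Of the 87, 3 were called lower and 3 higher at 1% O2, and 7 lower and 3 higher at <0.1% O2, beside the 6.35%, 4.43%, 19.4% and 4.57% of all promoter peaks given above. The 10 genes are among them. Their median changes of -0.07 and -0.14 lay beside -0.04 and -0.19 for all promoter peaks. The 16 ER chaperones and folding enzymes had 0 calls at either level, with medians of -0.04 and -0.05, and at an unadjusted limma p under 0.05 there were 3 at 1% O2 and 9 at <0.1% O2 (6 lower and 3 higher), beside 43.4% and 58.4% of all promoter peaks. Of the 12 genes of the PERK branch and eIF2α phosphorylation, 0 were called at 1% O2, where 5 had an unadjusted limma p under 0.05. At <0.1% O2, 10 had such a p (8 lower and 2 higher), beside 42.2% lower and 16.2% higher of all promoter peaks. The medians of the 12 were -0.08 and -0.29. At <0.1% O2, 1 of the 12 was called, Eif2ak2, the double-stranded RNA sensor PKR, which was lower (-0.69 ± 0.15, SE, limma adjusted p = 0.000197), whereas its fold over local background changed by 0.05.

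In the list of XBP1 targets, degradation and translocation, 2 of 17 were called lower and 0 higher at 1% O2, beside 6.35% and 4.43% of all promoter peaks. At an unadjusted limma p under 0.05, 4 of the 17 had a negative and 3 a positive change at 1% O2, beside 25% and 18.4%. At <0.1% O2, 4 of the 17 were called lower and 1 higher, beside 19.4% and 4.57% of all promoter peaks. No test compared the lists. The medians were 0.01 and -0.12. Ube2j1, a ubiquitin-conjugating enzyme of ER-associated degradation, had pileups of 137 and 156 in normoxia, 130 and 117 at 1% O2 and 69 and 60 in severe hypoxia. It was called lower at both levels, by -0.78 ± 0.14 (SE, limma adjusted p = 2.42e-05) and -1.55 ± 0.14 (adjusted p = 3.3e-11), whereas its fold over local background changed by -0.18 and -0.39 and was not called. Srp19, a subunit of the signal recognition particle, was lower by -0.66 and -1.22 (limma adjusted p = 0.000416 and 1.46e-08), and by fold it was called at <0.1% O2 only (-0.21 and -0.74). Erlec1, a lectin of the endoplasmic reticulum, was called lower at <0.1% O2, by -0.62 (limma adjusted p = 0.00119). Os9, another lectin of this pathway, was higher at <0.1% O2 by 0.61 (limma adjusted p = 1.55e-05).

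Among the targets of ATF4 and CHOP, 1 of 24 was called lower and 1 higher at each level. Nupr1, a stress-induced cofactor, had the largest positive change of the 87, with pileups of 49 and 72 in normoxia, 266 and 195 at 1% O2 and 209 and 195 in severe hypoxia. Its log2 changes were 1.41 ± 0.13 (SE, limma adjusted p = 1.01e-10) and 1.40 ± 0.13 (adjusted p = 6.37e-11), and its fold changed by 0.28 and 0.31, which was not called. Asns, asparagine synthetase, had pileups of 88 and 120, then 118 and 89, then 73 and 63, and was called lower at <0.1% O2 (-0.96 ± 0.15, SE, limma adjusted p = 1.78e-06). A change below 0 was found for 20 of 24 targets at 1% O2 and 18 at <0.1% O2, beside 55.1% and 65.7% of all promoter peaks, and the medians were -0.15 and -0.21, beside -0.04 and -0.19. Of the sensors, Creb3l1, a relative of Atf6, was called higher at both levels (0.62 and 0.85, limma adjusted p = 0.0201 and 0.00114) and the other 11 of 12 tested were not called. In the cell death list Bbc3, which encodes PUMA, was higher at 1% O2 (0.62, limma adjusted p = 0.000872) and Bcl2, which opposes cell death, was lower at <0.1% O2 (-0.89, adjusted p = 3.29e-06), of 6 tested.

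With the fold in place of the pileup there were 0 lower and 0 higher calls among the 87 at 1% O2, so that Trib3, Ube2j1, Srp19, Creb3l1, Nupr1 and Bbc3 lost theirs, and at <0.1% O2 only Srp19 (lower) and Creb3l1 (higher) kept theirs. Of all promoter peaks 0.509% were then called lower and 0.718% higher at 1% O2, and 2.81% and 0.887% at <0.1% O2. With genome coverage scaling the calls among the 87 were 1 lower and 6 higher at 1% O2 and 18 lower and 2 higher at <0.1% O2, beside 2.96%, 8.32%, 30.2% and 2.53% of all promoter peaks. With the GC trend subtracted they were 4 lower and 7 higher at <0.1% O2, beside 12.1% and 7.1%. Leaving out the first 1% O2 library gave 6 lower and 1 higher at 1% O2, leaving out the first 21% O2 library 11 lower at <0.1% O2, and leaving out the second <0.1% O2 library 1 higher at <0.1% O2.

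**Figure D5:**
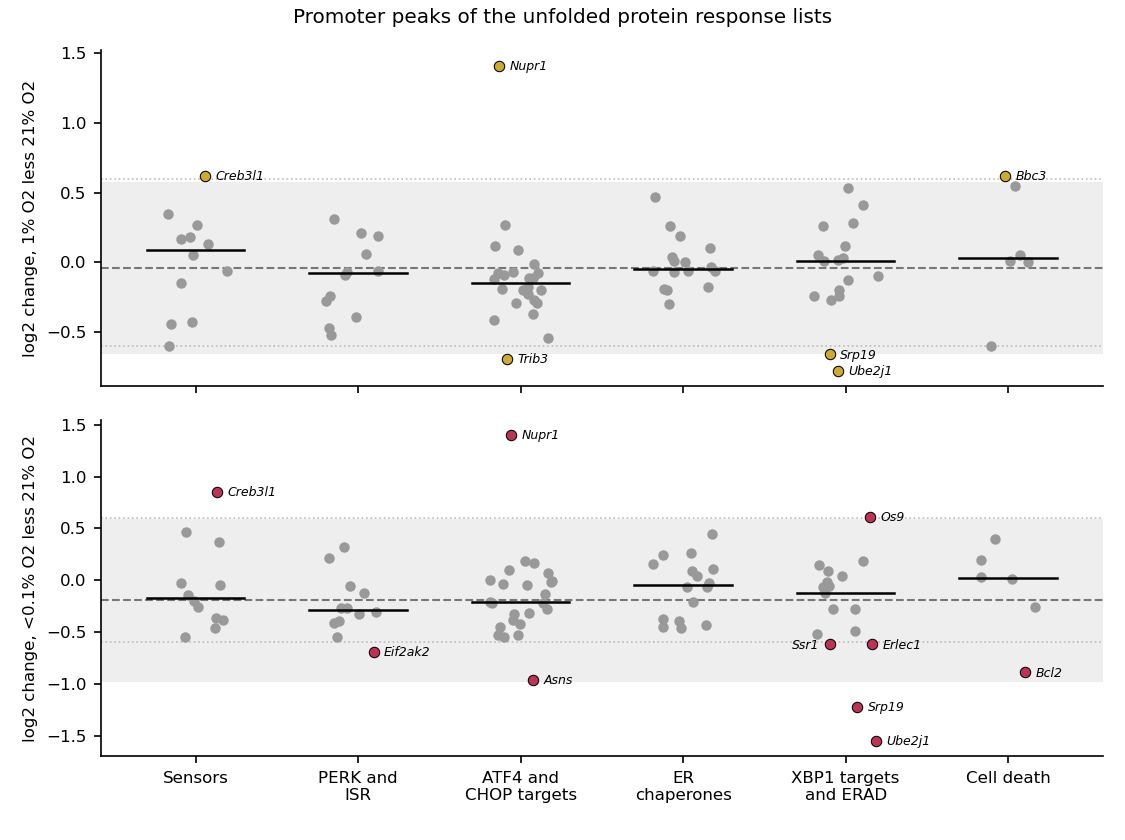
Log2 change of the strongest promoter peak of each gene of the 6 lists at 1% O2 (upper) and <0.1% O2 (lower) against 21% O2, with called genes coloured and named, black bars at the list medians, dotted lines at ±0.6, and the dashed line and grey band giving the median and the middle 90% of all 12959 promoter peaks. PERK and ISR is the list of eIF2α kinases, phosphatases and ATF4 partners (the integrated stress response). Nupr1 stands at 1.41 and 1.40 and Ube2j1 reaches -1.55 in the lower one, while no chaperone is coloured.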

How the data were processed

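ATACseq was done on 6 libraries of GL261 cells, 2 at each of 21%, 1% and <0.1% O2. The authors aligned trimmed reads with Bowtie2 (2.2.5) to mm10 and used MACS2 (2.1.1.2) for peak calling in each library, per the labels and their notes. Each deposited list gives a fold over the local background, a ratio of fragment pileup at the summit to the background with a pseudocount of 1, beside -log10 p-value and -log10 q-value. From fold and -log10 p the whole summit pileup and its background were recovered for 100% of peaks (tolerance 0.01 in -log10 p). Read counts per peak were not used here, so no count test was run.

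Peaks shared by both libraries of a condition over more than 200 bp were merged over conditions. Log2 summit pileup of the 28432 peaks in all 6 libraries, scaled by the median of ratios, was fitted with limma (3.58.1, R 4.3.3) over the 3 conditions with a variance trend, and p-values were adjusted by Benjamini-Hochberg over all of them. The contrast of <0.1% with 1% O2 was added in the same fit. The smallest p of an exact permutation test of 2 libraries against 2 is 0.33, and none was used for calls. The code recovered known changes when tested on simulated data. Replicate numbers did not pair the libraries (correlations of -0.051, -0.013 and 0.008 over peaks).

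The 10 genes, the gene lists and the tests were chosen with earlier results of these data known. Named by rule were the 10 genes with their called or partly listed peaks, and at most 6 called genes of the lists per direction and level. The AP-1 motif was added after the sequences had been read. Alternatives covered scaling, the value compared, GC content, the replicate block, the variance trend, the peak threshold, overlap, list length, promoter window, call size and leaving out each library. The result of 1 list gene and the sequence of 1 distal peak are not reported here.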

Additional observations from a re-analysis of the deposited data

Results flagged for a closer look

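Results were singled out where the change at <0.1% O2 differed from that at 1% O2, tested as the contrast between the hypoxia levels in the same limma fit, at an adjusted p under 0.05 and with no minimum size. This contrast was passed by 21.2% (lower) and 4.31% (higher) of all promoter peaks, and by 3.35% and 19.2% of peaks outside promoters. Around the 10 genes there were 3. The distal Hspa5 peak 8916 bp before the TSS was higher at <0.1% O2 than at 1% O2 by 0.64 on the log2 scale (limma adjusted p = 0.0264), and the Gapvd1 promoter peak in the same window differed by -0.64 (adjusted p = 0.0161). The Trib3 promoter peak was higher at <0.1% O2 than at 1% O2 by 0.37 (adjusted p = 0.0168). Within each of these peaks the 2 libraries of one level did not overlap those of the other.

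Of the 87 list genes, 10 were lower and 2 higher, Trib3 being 1 of the latter. Among the other genes of the wider lists, 11 differed between the levels, of which 4 were also called against 21% O2 at 1 or both levels, and these 4 were lower at <0.1% O2 than at 1% O2. The differences were -0.77 for Ube2j1 (limma adjusted p = 8.32e-05), -0.64 for Ssr1 (adjusted p = 0.00271), -0.56 for Srp19 (adjusted p = 0.00437) and -0.43 for Asns (adjusted p = 0.0315). The 7 that were not called against 21% O2, named after their values were seen, were Psat1 (0.51), Mbtps1 (-0.54), Dnajb9 (-0.41), Pdia6 (-0.40), Sec61a1 (-0.36), Dnajc3 (-0.33) and Nars (-0.31), with limma adjusted p from 0.00106 to 0.0389. Ssr1, a subunit of the translocon-associated complex, was likewise named after its values were seen, and was lower than at 21% O2 by -0.62 at <0.1% O2 (limma adjusted p = 0.00122). The cause of these differences was not tested.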

How the results depend on the processing

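Limits. Peak lists give the height at the summit and not reads over the peak, with 2 libraries per condition and deeper hypoxic libraries, and a site under the threshold of the caller has no value. Counts are given below as lower and higher calls for the promoter peaks of the 10 genes, the other window peaks and the 87 list genes. As reported they were 2 and 0, 0 and 1, and 3 and 3 at 1% O2, and 1 and 1, 2 and 2, and 7 and 3 at <0.1% O2. The cause of the differences between settings was not tested.

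Genome coverage scaling gave 0 and 1, 0 and 3, and 1 and 6 at 1% O2, and 3 and 0, 4 and 2, and 18 and 2 at <0.1% O2. The fold in place of the pileup gave 0 lower promoter peaks at both levels and 0 higher at <0.1% O2, 1 lower and 1 higher other peak at <0.1% O2, and among list genes 0 and 0 at 1% O2 and 1 and 1 at <0.1% O2. Quantile and cyclic loess normalization each gave 1 higher promoter peak at 1% O2 and 1 lower other peak at <0.1% O2, and loess 4 higher other peaks at <0.1% O2. With the GC trend subtracted, alone or with the replicate block, there were 2 higher other peaks at 1% O2, 0 lower at <0.1% O2, and 4 and 7 list genes at <0.1% O2. The replicate block alone changed 0 of the calls, compared one by one, among the 35 window peaks and 87 list genes. Only strong peaks left 0 higher other peaks at 1% O2, 1 lower and 1 higher at <0.1% O2, and 0 higher promoter peaks at <0.1% O2. A promoter window of 500 bp gave 1 lower promoter peak and 1 lower other peak at 1% O2 and 0 and 0 promoter peaks at <0.1% O2. Of all promoter peaks in this window 6.07% were lower at 1% O2, and 21% lower and 3.07% higher at <0.1% O2. The adjusted p alone gave 4 lower promoter peaks at each level, 5 and 4 other peaks at 1% O2 and 6 and 5 at <0.1% O2, and 17 and 10, then 35 and 9 list genes. Of all promoter peaks it passed 19.8% and 14.5% at 1% O2 and 38.4% and 14% at <0.1% O2. By fold rank there were 3 higher promoter peaks at 1% O2 and 2 and 2 at <0.1% O2, 5 and 4 other peaks at 1% O2 and 6 lower at <0.1% O2, and 15 and 11, then 17 and 9 list genes. The fold rank criterion was met by 16.5% and 11.9% of all promoter peaks, then 26.5% and 12%. By pileup rank there were 2 and 0 promoter peaks at <0.1% O2, 4 and 4 other peaks at 1% O2 and 5 higher at <0.1% O2, and 9 and 5, then 15 and 5 list genes. The pileup rank criterion was met by 16.5% and 11.8% of all promoter peaks, then 32% and 10.2%. Lists of equal length gave 3 peaks gained and 1 lost at 1% O2 and 2 lost at <0.1% O2.

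Leaving out each library gave 1 to 2 lower and 0 to 1 higher promoter peaks at <0.1% O2, 1 to 4 higher other peaks at 1% O2 and 2 to 4 at <0.1% O2, and 3 to 6 lower and 1 to 3 higher list genes at 1% O2 and 6 to 11 lower and 1 to 3 higher at <0.1% O2. The ranges of the promoter changes were -0.23 to 0.20 for Ddit3, -0.17 to 0.05 for Hspa5 and -0.02 to 0.19 for Chac1 at 1% O2, and -0.14 to 0.29 for Ddit3 and -0.60 to -0.49 for Atf4 at <0.1% O2. The sign of Ddit3 turned without the second library at 21% O2 (0.20) or at 1% O2 (0.05), and at <0.1% O2 without the first 21% O2 library (-0.14) or the second <0.1% O2 library (-0.01). Hspa5 turned without the first 1% O2 library (0.05) and Chac1 without the second (-0.02).

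Trib3 lost its call at 1% O2 with genome coverage scaling (-0.55) and with the fold (-0.35), and at <0.1% O2 Atf4 (-0.72) and Atf6 (-0.63) gained one with coverage scaling, as Atf4 did without the first 21% O2 library (-0.60). Coverage scaling turned the sign of Ddit3 (0.13 at 1% O2, -0.10 at <0.1% O2), Hspa5 (0.09 at 1% O2) and Xbp1 (-0.01 at <0.1% O2). Quantile normalization turned Ddit3 (0.02) and Hspa5 (0.02 at 1% O2, 0.01 at <0.1% O2), and loess Ddit3 (0.01). The fold turned Atf4 (0.33 and 0.34), Atf6 (0.10 and 0.01), Hspa5 (0.06 at 1% O2), Xbp1 (-0.01 at <0.1% O2) and Chac1 (-0.18 at <0.1% O2). With the GC trend subtracted, with or without the replicate block, Hspa5 (0.23), Ern1 (0.18) and Atf3 (0.02) turned at <0.1% O2. In percentile points of fold rank, Atf4 was at 18.29 and 21.05, Atf6 at 3.82 and 0.81, Hspa5 at 2.66 (1% O2), Xbp1 at -1.44 and -1.04 and Chac1 at -13.36 (<0.1% O2), opposite to the pileup, while Eif2ak3 (-12.07), Ern1 (10.16) and Atf3 (-15.45) passed the rank criterion at 1% O2. In pileup rank, Ddit3 (0.18, 1% O2) and Hspa5 (0.14 and 0.13) turned and Atf6 passed at both levels (-15.31 and -16.02).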
